A study of Mus musculus with 15 samples.

Results

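miR-210-3p (mmu-miR-210-3p in full) was followed in small RNA libraries of mouse Kupffer cells, macrophages that live in the sinusoids of the liver. It is 1 of the 248 mature microRNAs (miRNAs) listed in the deposited tables. It was taken by its name, with earlier results of these data known, from 1 table for each age. The 15 libraries were from C57BL/6J mice (wt) of 9 weeks (n = 4) and 14 weeks (n = 4) and from ob/ob mice of 9 weeks (n = 3) and 14 weeks (n = 4). ob/ob mice lack functional leptin and become obese, and no further allele or agent is named for any group. Nothing in the labels says whether the replicates of a group were separate animals or whether animals were pooled, so the p-values below measure the spread between these libraries, which may be technical. The question was how the level of miR-210-3p differed between the genotypes at each age and how it stood to library depth.

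miRNAs are short RNAs that guide Argonaute proteins to messenger RNAs, which they pair with mainly through the seed, and lower the output of those messengers. miR-210-3p is the miRNA best known for its response to low oxygen: the hypoxia-inducible factor HIF1A switches on the gene Mir210. Its known targets include ISCU, a scaffold for building iron-sulfur clusters, through which it lowers mitochondrial respiration. It is widely used as a readout of hypoxic signalling.

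The mature miRNA and its partner from the other arm of the hairpin are shown because the levels described below are those of these RNAs. Capitals mark the seed, bases 2 to 8 of the mature miRNA. Sequences are from RefSeq on GRCm38.p6.
miR-210-3p: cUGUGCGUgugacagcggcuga
miR-210-5p: aGCCACUGcccaccgcacacug
The hairpin that holds them follows, with the mature arms in capitals.
Mir210: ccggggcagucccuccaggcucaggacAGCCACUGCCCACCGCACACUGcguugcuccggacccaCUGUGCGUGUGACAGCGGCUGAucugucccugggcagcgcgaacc

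The hairpin lies on the minus strand at chr7:141221384-141221493, miR-210-3p at chr7:141221407-141221428 and miR-210-5p at chr7:141221445-141221466. In GENCODE vM21 (GRCm38) the hairpin overlaps no other gene, and no other miRNA hairpin lies within 10 kb. Its neighbours are Rassf7, 2.73 kb away, and Phrf1, 7.29 kb away, both on the plus strand. The seed UGUGCGU is held by no other of the 218 listed miRNAs for which the RefSeq table has a sequence, and by no other mature sequence of that table. miR-210-3p is rich in G and C, at 63.6% of its bases, against a median of 47.6% over the same 218.

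Values are in RPM, reads per 1000000 reads, which has no term for length. The depth that the worth of 1 read implies, in units of 1000000 reads (M), ran from 13.4 to 22.8 M in wt libraries of 9 weeks and from 25.9 to 33.9 M in their ob/ob counterparts. At 14 weeks it ran from 9.08 to 39.0 M in wt and from 44.0 to 98.1 M in ob/ob. The depths of the genotypes thus did not overlap at either age. The wt library 1 of 14 weeks stood apart, with the lowest depth and with 147387 RPM on the listed miRNAs against 317539 to 353829 RPM in the other wt libraries of that age. Of the miRNAs known from macrophages and other myeloid cells, 3 of 4 were listed, with summed levels of 1833 to 4465 RPM over the 15 libraries. In the same libraries the endothelial miR-126a arms summed to 10833 to 63153 RPM. miR-223-3p, a defining myeloid miRNA, was not analysed here. miR-142a-3p, another one, was at or near 0, at no more than 0.16 RPM, in every library except ob/ob libraries 2, 3 and 4 of 14 weeks, while its partner arm miR-142a-5p was abundant throughout.

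At 9 weeks miR-210-3p stood at 5.58, 1.94, 4.41 and 4.34 RPM in wt libraries 1 to 4. The ob/ob libraries 1 to 3 had 9.79, 7.34 and 10 RPM. The lowest ob/ob library lay 1.32-fold above the highest wt library, so the groups did not overlap, and library 2 was the lowest of each genotype. The reads behind these values numbered 127, 26, 62 and 62 in wt and 326, 190 and 339 in ob/ob. The nearest libraries had exact 95% Poisson intervals of 4.65 to 6.63 RPM (wt library 1) and 6.33 to 8.46 RPM (ob/ob library 2), which overlap. These intervals, like those below, cover counting error only.

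At 14 weeks wt libraries 1 to 4 had 1.76, 3.23, 2.49 and 1.87 RPM of miR-210-3p. The ob/ob libraries 1 to 4 had 7.86, 9.37, 11.2 and 15.01 RPM. Every ob/ob library lay above every wt library, with a gap of 2.43-fold between the nearest, and library 4 was the highest. Behind these values stood 16, 126, 59 and 45 reads in wt and 346, 919, 660 and 773 reads in ob/ob. Here the intervals of the nearest libraries were apart, at 2.69 to 3.85 RPM (wt library 2) and 7.05 to 8.73 RPM (ob/ob library 1).

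**Figure D1:**
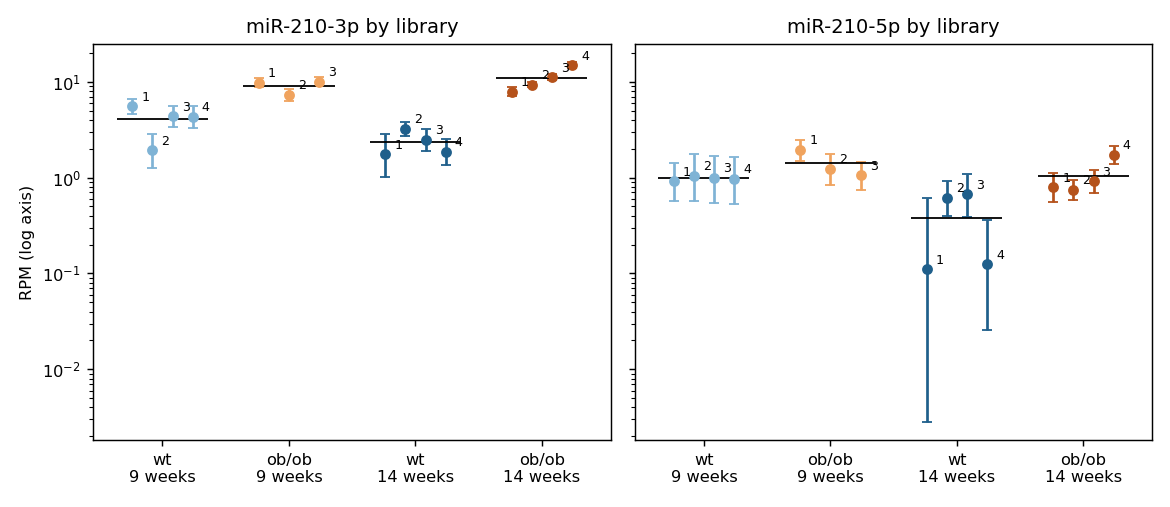
RPM of miR-210-3p (left) and miR-210-5p (right) in each of the 15 libraries, on a shared log axis; numbers give the replicate, vertical bars the exact 95% Poisson interval of the reads and horizontal lines the group mean. For miR-210-3p the ob/ob libraries lie at 7.34 RPM or more and the wt libraries at 5.58 RPM or less, whereas the nearest miR-210-5p libraries of the genotypes lie within each other's bars (1.06 against 1.04 RPM at 9 weeks and 0.74 against 0.68 RPM at 14 weeks).

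The group means were, from high to low, 10.9 ± 3.08 RPM in ob/ob at 14 weeks (SD, n = 4), 9.04 ± 1.48 in ob/ob at 9 weeks (n = 3), 4.06 ± 1.53 in wt at 9 weeks (n = 4) and 2.34 ± 0.68 in wt at 14 weeks (n = 4). In this order the ranges of the ob/ob groups overlapped, as did those of the wt groups, while the lowest ob/ob library of 9 weeks lay above every wt library. Levels of the 2 ages are set side by side without a test, because each table may have been normalized on its own. The libraries of a group differed by more than read counting gives. The coefficient of variation was 37.6% in wt and 16.4% in ob/ob libraries of 9 weeks, where counting alone gives 12.3% and 5.96%. At 14 weeks it was 28.9% and 28.4%, where counting gives 14.5% and 4.002%.

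miR-210-3p was higher in ob/ob Kupffer cells at 9 weeks. The difference in log2(RPM + 0.5), a scale on which changes of rare miRNAs come out too small, was 1.13 ± 0.34 (SE; 95% interval 0.36 to 1.90), or 2.19-fold (limma, adjusted p = 0.0282). All 3 ob/ob libraries lay above all 4 wt libraries. A two-sided exact permutation test of the mean log2 level gave p = 0.0571, the smallest it can give for 4 against 3 libraries. Of all 179 miRNAs tested at 9 weeks, 37.4% were called in either direction. Higher calls were few, at 5.03% (9 miRNAs), and miR-210-3p was among them, while lower calls made up 32.4% (58 miRNAs). Its difference was the 11th highest, although its p was only the 61st smallest. The share of tested miRNAs in which every ob/ob library lay above every wt library was 7.26% at this age. The call was lost without wt library 4 (1.18, adjusted p = 0.0519 by limma), ob/ob library 1 (1.07, adjusted p = 0.0905) or ob/ob library 3 (1.05, adjusted p = 0.0709).

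At 14 weeks the difference was larger in size, 1.99 ± 0.29 (SE; 95% interval 1.34 to 2.65), or 3.98-fold (limma, adjusted p = 0.00256). Here 4 of 4 ob/ob libraries lay above all 4 wt libraries, and the exact permutation test gave p = 0.0286, the smallest possible for 4 against 4. Of the 171 miRNAs tested, 15.2% were called, 11.7% as higher and 3.51% as lower. miR-210-3p had the 3rd smallest p and the 6th highest difference. In 22.2% of the miRNAs tested at 14 weeks every ob/ob library lay above every wt library, so the absence of overlap was common at this age. The call held without each of the 8 libraries in turn, with differences of 1.83 to 2.13. Replicates 1 and 2 of both genotypes were sequenced in lane 1 and replicates 3 and 4 in lane 2. Lane 1 alone gave 1.64 ± 0.78 (limma, adjusted p = 0.377, 2 against 2 libraries), and lane 2 alone 2.34 (adjusted p = 0.0118). Within both lanes each ob/ob library lay above each wt library.

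**Figure D2:**
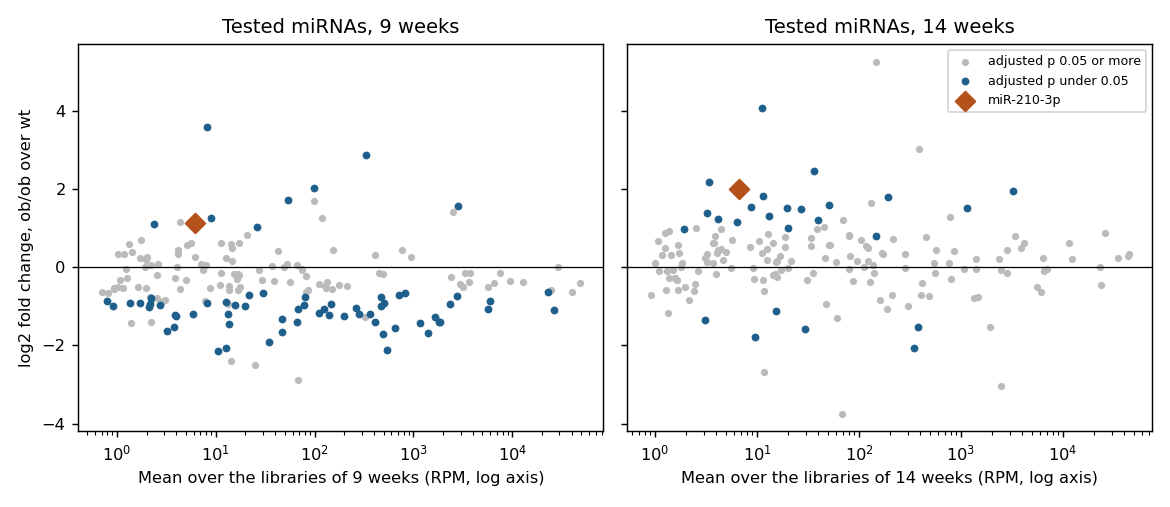
log2 fold change of ob/ob over wt against the mean RPM (log axis) for the 179 miRNAs tested at 9 weeks (left) and the 171 tested at 14 weeks (right), with called miRNAs in blue and miR-210-3p as a diamond. miR-210-3p lies at 1.13 and 1.99, above a median of all tested miRNAs of -0.51 at 9 weeks and 0.20 at 14 weeks.

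The 2 ages could not be separated by a test of their difference. The ob/ob effect on miR-210-3p was larger at 14 than at 9 weeks by 0.86 ± 0.44 on the log2 scale (SE; 95% interval -0.08 to 1.81), which missed the threshold (limma interaction, adjusted p = 0.233, unadjusted p = 0.0698). No miRNA passed this test by limma (0 of 187, with 25.7%, or 48, at an unadjusted p under 0.05) or by limma-voom on the reads behind the values (0 of 187). All libraries of 9 weeks were sequenced in lane 2, so lane differed in part with age. In lane 2 alone the effects of the ages on miR-210-3p differed by 1.21 ± 0.51 (limma, adjusted p = 0.265). As deposited, the median difference of all tested miRNAs was -0.51 at 9 weeks and 0.20 at 14 weeks. The sign at 14 weeks rested on wt library 1, the library that stood apart: without it the median was -0.05, and in lane 2 alone it was -0.10. After each library was divided by its median ratio to the others of its age, miR-210-3p differed by 1.59 ± 0.34 at 9 weeks (limma, adjusted p = 0.0201; 11.3% of the tested miRNAs called higher) and by 1.80 ± 0.30 at 14 weeks (adjusted p = 0.00367; 15.5% called higher). The effects of the ages then differed by 0.20 ± 0.46 (adjusted p = 0.851 by limma). The rescaled levels did not overlap between the genotypes at either age. Their means were 3.43 ± 1.25 in wt (SD, n = 4) and 10.9 ± 2.20 in ob/ob (n = 3) at 9 weeks, and 2.44 ± 0.61 and 10.1 ± 4.11 (n = 4 each) at 14 weeks. How many other miRNAs lacked overlap on the rescaled scale was not counted. As deposited, every ob/ob library lay above every wt library in 7.26% of the tested miRNAs at 9 weeks and 22.2% at 14 weeks. These shares need not hold after rescaling, which took higher calls at 9 weeks from 5.03% to 11.3%. The choice of scale also changed which wt library of 14 weeks was lowest. Library 1 was lowest in RPM at 1.76 but highest as a share of the listed miRNAs, at 11.96 per 1000000 of their sum, against 5.28 to 10.2 in the other 3.

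Library depth moved with genotype, and neither age passed the threshold once depth entered the fit. With log2 depth as a covariate the difference was 0.11 ± 0.62 at 9 weeks (95% interval -1.33 to 1.55; limma, adjusted p = 0.896) and 1.67 ± 0.42 at 14 weeks (0.74 to 2.60; adjusted p = 0.0767). In these fits limma called 0 of 179 miRNAs at 9 weeks, where 9.5% had an unadjusted p under 0.05, and 1.75% of 171 at 14 weeks. Because the depths did not overlap, depth and genotype cannot be told apart in these libraries.

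Within a group the genotype is fixed, so the libraries can be ordered by depth alone. In wt at 9 weeks the order from shallow to deep was library 2, 3, 4 and 1, with 1.94, 4.41, 4.34 and 5.58 RPM, and the deeper library of a pair was higher in 5 of 6 pairs. In ob/ob at 9 weeks the order was library 2, 1 and 3, with 7.34, 9.79 and 10 RPM, so the deeper was higher in 3 of 3 pairs. At 14 weeks wt ran from library 1 over 3 and 4 to 2, with 1.76, 2.49, 1.87 and 3.23 RPM, again with 5 of 6 pairs in this direction. ob/ob at 14 weeks ran from library 1 over 4 and 3 to 2, with 7.86, 15.01, 11.2 and 9.37 RPM, and only 3 of 6 pairs followed depth. In all, the deeper library held more miR-210-3p in 16 of 21 pairs. Over the 168 miRNAs tested at both ages the median was 12 of 21, with quartiles of 9 and 14, and 15 miRNAs, miR-210-3p among them, had 16 or more. Pairs share libraries and are not independent, so these counts are a description.

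Libraries of nearly equal depth gave the closest comparison across genotypes. At 9 weeks ob/ob library 2, of 25.9 M reads, had 7.34 RPM of miR-210-3p and wt library 1, of 22.8 M, had 5.58 RPM, a ratio of 1.32. At 14 weeks ob/ob library 1, of 44.0 M reads, had 7.86 RPM and wt library 2, of 39.0 M, had 3.23 RPM, a ratio of 2.43. Each ratio is of 1 library to 1 library and has no replicate check.

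**Figure D3:**
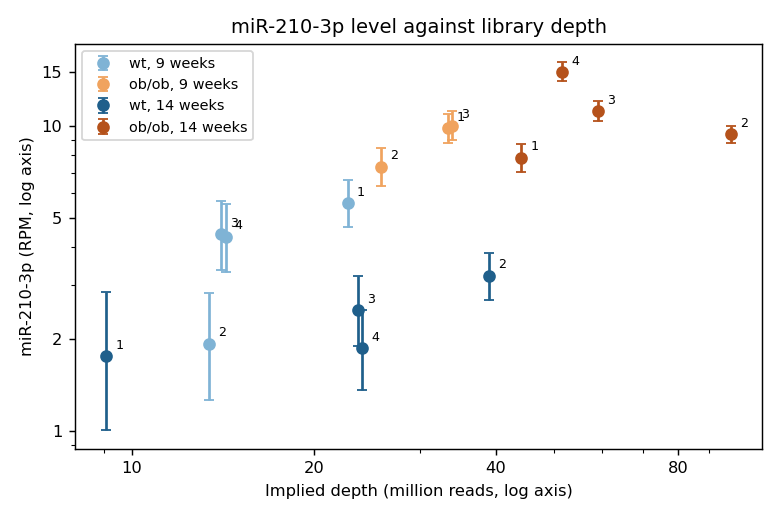
miR-210-3p in RPM against the implied depth in M reads for the 15 libraries, both on log axes, with exact 95% Poisson intervals, colours for the 4 groups and numbers for the replicates. The genotypes share no range of depth within an age, the ob/ob libraries of 14 weeks run from 7.86 RPM at 44.0 M reads to 9.37 RPM at 98.1 M with higher values between, and wt library 2 of 14 weeks, at 39.0 M reads, lies at 3.23 RPM.

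A rank within a library does not depend on a scale factor of that library. Among the 248 listed miRNAs, with rank 1 as the most abundant, miR-210-3p ranked 127, 155, 125 and 130 in wt libraries 1 to 4 of 9 weeks and 109, 111 and 104 in ob/ob libraries 1 to 3. At 14 weeks it ranked 137, 135, 143 and 147 in wt and 120, 115, 114 and 103 in ob/ob. Each ob/ob library thus placed it higher than each wt library of its age. How often other miRNAs were separated in this way by rank was not counted. In RPM 7.26% of the tested miRNAs were so separated at 9 weeks and 22.2% at 14 weeks, and the shares by rank may differ from these. miR-210-3p was a miRNA of middling to low abundance in every library. By group mean it stood at rank 133 in wt of 9 weeks, between miR-365-3p (4.15 ± 0.42 RPM, SD, n = 4) and miR-200a-3p (4.05 ± 0.36), neither of which differed from it beyond the spread. In ob/ob of 9 weeks it stood at rank 112, between miR-125b-2-3p (9.33 ± 3.96 RPM, n = 3) and miR-322-3p (8.87 ± 5.25). At 14 weeks it stood at rank 146 in wt, between miR-16-1-3p (2.38 ± 1.10 RPM, n = 4) and miR-29a-5p (2.28 ± 1.22), and at rank 116 in ob/ob, between miR-188-5p (12.1 ± 2.53 RPM) and miR-30b-3p (10.01 ± 1.23). In these groups too the neighbours lay within the spread of miR-210-3p.

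miR-210-5p, the less abundant arm of the same hairpin shown above, was too rare for a firm comparison. It had 0.92, 1.04, 0.99 and 0.98 RPM in wt of 9 weeks, from 14 to 21 reads, and 1.95, 1.24 and 1.06 RPM in ob/ob, from 32 to 65 reads. At 14 weeks it had 0.11, 0.62, 0.68 and 0.12 RPM in wt, from 1 to 24 reads, and 0.79, 0.74, 0.92 and 1.73 RPM in ob/ob, from 35 to 89 reads. The genotypes did not overlap in RPM at either age, by 1.06 against 1.04 RPM at 9 weeks and by 0.74 against 0.68 RPM at 14 weeks, gaps well inside the counting intervals. The difference at 9 weeks was 0.34 ± 0.25 on the log2 scale (limma, adjusted p = 0.304). At 14 weeks it fell below the filter on low values, and a fit without that filter gave 0.84 ± 0.30 (limma, adjusted p = 0.0976). The 3p arm took 65.0 to 85.8% of the reads of both arms in wt and 83.4 to 90.4% in ob/ob libraries of 9 weeks, and 78.7 to 94.1% and 89.7 to 92.6% at 14 weeks. These shares overlapped between the genotypes, with a two-sided exact permutation p of 0.171 at 9 weeks and 0.429 at 14 weeks. The lowest share, 65.0% in wt library 2 of 9 weeks, had an exact binomial 95% interval of 48.3 to 79.4%.

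The miRNAs whose profile over the 15 libraries was most like that of miR-210-3p were miR-34a-5p, miR-144-5p, miR-130b-3p, miR-192-5p and miR-374b-5p. Their Pearson correlations of log2(RPM + 0.5) with it were 0.94, 0.92, 0.92, 0.92 and 0.91, where the median over the 167 miRNAs tested at both ages, miR-210-3p aside, was -0.01. The libraries fall into groups by genotype and share depth with it, so a miRNA that differs between the genotypes gains likeness from that alone, and the values are a description. miR-34a-5p, a miRNA known as a target gene of p53, had 5.54 ± 1.72 RPM in wt and 13.6 ± 1.51 in ob/ob libraries of 9 weeks (SD, n = 4 and 3), and 4.76 ± 1.17 and 18.0 ± 4.56 at 14 weeks (n = 4 each). miR-144-5p, of the miR-144 and miR-451a locus of red blood cells, rose from 1.03 ± 0.44 to 17.6 ± 3.66 RPM at 9 weeks (log2 difference 3.59, limma, adjusted p = 0.000266) and from 0.77 ± 0.29 to 21.4 ± 8.73 at 14 weeks (4.06, adjusted p = 0.000108). miR-130b-3p had a smaller difference, 0.27 ± 0.26 at 9 weeks (limma, adjusted p = 0.447) and 1.14 ± 0.24 at 14 weeks (adjusted p = 0.0101). miR-374b-5p differed by 0.62 ± 0.27 at 9 weeks (limma, adjusted p = 0.103) and by 1.50 ± 0.30 at 14 weeks (adjusted p = 0.00858). After rescaling these were still the 5 closest. On the deposited scale the most opposite profiles were those of let-7e-3p, miR-423-5p and miR-1964-3p, at -0.86, -0.83 and -0.83. After rescaling let-7e-3p was still the most opposite, at -0.96, while miR-423-5p (-0.80) and miR-1964-3p (-0.85) gave way to miR-30c-2-3p (-0.92) and let-7e-5p (-0.91), which were named after their values were seen. miR-423-5p stood at 724 to 969 RPM in wt and 135 to 285 RPM in ob/ob libraries of 9 weeks. At 14 weeks it stood at 461 to 588 and 76.2 to 277 RPM. It was called lower at both ages (limma, adjusted p = 0.0035 and 0.00631). So were 32.4% of all tested miRNAs at 9 weeks and 3.51% at 14 weeks.

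When each library was set against the mean of its own group, the genotype difference dropped out and the likeness that remained was weaker. On the deposited scale the closest deviations were those of miR-130b-3p (0.70), miR-34a-5p (0.69), miR-374b-5p (0.61), miR-144-5p (0.60) and miR-21a-5p (0.59), against a median of 0.06. miR-192-5p, close over all libraries, came 8th at 0.55. After rescaling the first 3 were still miR-34a-5p, miR-130b-3p and miR-374b-5p, miR-192-5p came 4th at 0.68, miR-21a-5p 6th at 0.64 and miR-144-5p 10th at 0.56.

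**Figure D4:**
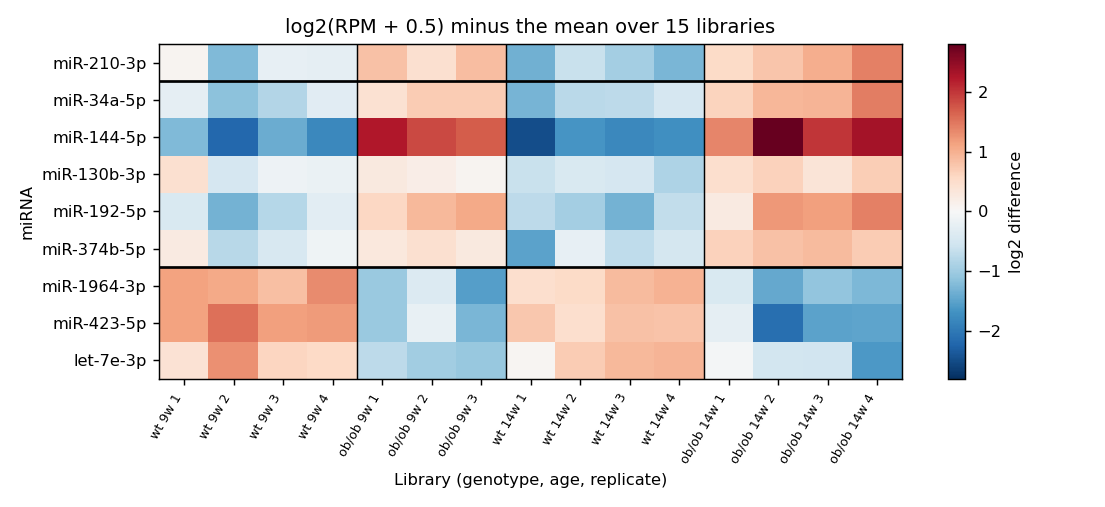
log2(RPM + 0.5) minus the mean over the 15 libraries for miR-210-3p (top), the 5 miRNAs with the closest profile (middle) and the 3 with the most opposite profile (bottom), 1 column per library, red for higher and blue for lower. The closest profiles correlate with miR-210-3p at 0.91 to 0.94 and the opposite ones at -0.86 to -0.83.

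miRNAs reported elsewhere to rise under low oxygen were called higher about as often as all tested miRNAs. Of a list of 21, 18 were listed here. The list leaves out miR-210-3p itself but holds its partner arm miR-210-5p. Of its members, miR-24-3p was listed at 0 in 1 wt library of 9 weeks and miR-93-5p in 1 wt library of 14 weeks. Their differences at those ages were uncertain, at 1.14 ± 0.87 and 3.03 ± 2.20 (SE), and not called. At 9 weeks 17 were tested, of which 1 was higher (against 5.03% of all tested miRNAs) and 4 were lower (against 32.4%), with a median difference of -0.40 against -0.51 over all tested miRNAs. The higher one was miR-192-5p, a miRNA abundant in liver and gut epithelium, at 1.57 ± 0.27 (limma, adjusted p = 0.00529). The lower ones were miR-30b-5p (-1.41), miR-125b-5p (-1.21), miR-103-3p (-1.06) and miR-26a-5p (-0.63), with adjusted p of 0.00698 to 0.0111 by limma. None of these 4 passed after median-ratio rescaling, when 10.2% of all tested miRNAs were called lower, with differences of -0.90, -0.70, -0.56 and -0.12, while miR-192-5p did. At 14 weeks 16 were tested, of which 2 were higher (against 11.7%) and 0 lower (against 3.51%; 3 were higher and 0 lower at an unadjusted p under 0.05 by limma, which 32.7% of all tested miRNAs reached), with a median difference of 0.33 against 0.20. Without wt library 1 these medians were -0.02 and -0.05, and in lane 2 alone -0.28 and -0.10. After rescaling, which called 28.6% of the tested miRNAs at this age and 13.1% as lower, miR-125b-5p was also called lower.

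The 2 higher members at 14 weeks were miR-192-5p and miR-155-5p. miR-192-5p differed by 1.94 ± 0.30 (limma, adjusted p = 0.00256), close to the 1.99 of miR-210-3p. miR-155-5p, a miRNA induced in activated macrophages, had 5.84, 11.97, 7.38 and 4.99 RPM in the wt libraries and 21.8, 23.4, 16.2 and 14.2 RPM in ob/ob. Its lowest ob/ob library lay above its highest wt library, as in 22.2% of the miRNAs tested at this age. Its difference was 1.31 ± 0.32 (limma, adjusted p = 0.0201). This call was lost without wt library 3 or 4 or without ob/ob library 2 or 3, with differences of 1.15 to 1.37 and adjusted p of 0.05 to 0.078. miR-21a-5p, a miRNA of inflamed and fibrotic tissue, was 0.88 ± 0.27 higher at 14 weeks and just missed the threshold (limma, adjusted p = 0.0535). At 9 weeks it differed by -0.01 (adjusted p = 0.977 by limma). The members with the next smallest p, all at 9 weeks and none past the threshold by limma, were miR-181a-5p (-0.40 ± 0.16, adjusted p = 0.0852), miR-195a-5p (-0.64 ± 0.26, adjusted p = 0.0882) and miR-181c-5p (-0.49 ± 0.21, adjusted p = 0.101). After rescaling miR-181a-5p stood at 0.11 and miR-181c-5p at 0.01, on the other side of 0.

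Some markers of other cells moved with genotype alongside miR-210-3p. In bulk libraries, more cells of a type and more RNA per cell cannot be told apart. Of 4 erythroid miRNAs only miR-144-5p was listed, with 0.52 to 1.49 RPM in wt and 14.7 to 21.7 in ob/ob libraries of 9 weeks, and 0.33 to 0.97 and 11.6 to 32.4 RPM at 14 weeks. Its level in ob/ob was higher without overlap at both ages, like that of miR-210-3p. The same held for 7.26% of the tested miRNAs at 9 weeks and 22.2% at 14 weeks. The other 3 erythroid members were not analysed here. All 4 hepatocyte miRNAs were listed, with summed levels of 1100 to 2222 RPM in wt and 3966 to 5524 in ob/ob libraries of 9 weeks, and 1099 to 1689 and 3169 to 6899 RPM at 14 weeks. Of the 3 tested, 2 were higher at each age (miR-122-5p and miR-192-5p at 9 weeks, against 5.03% of all tested miRNAs, and miR-194-5p with miR-192-5p at 14 weeks, against 11.7%), and miR-192-5p made up most of the sum. After rescaling, 3 were called higher at 9 weeks (against 11.3%) and 1, miR-192-5p, at 14 weeks (against 15.5%). As deposited, miR-122-5p differed by 0.57 ± 0.55 at 14 weeks (limma, adjusted p = 0.551). Its levels there overlapped, at 15.2 to 101 RPM in wt and 36.9 to 79.4 RPM in ob/ob. Its profile correlated with that of miR-210-3p at 0.49. miR-122-3p, under 1 RPM throughout, overlapped between the genotypes at both ages. miR-192-5p and miR-144-5p are also among the 5 closest profiles above. Neither hepatocyte nor erythroid list had a listed member at 0 in any library.

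The summed levels of the remaining lists overlapped between the genotypes, apart from the lymphocyte sum of 9 weeks, which was lower in ob/ob. Most of that sum was miR-181a-5p, which differed by -0.40 at 9 weeks as deposited and by 0.11 after rescaling. The median of all tested miRNAs was -0.51 as deposited. No lymphocyte member was called on either scale. How many miRNAs had every ob/ob library below every wt library was not counted. The endothelial sum was 42296 to 59286 RPM in wt and 18455 to 45923 in ob/ob libraries of 9 weeks, and 10833 to 63153 and 33631 to 55779 at 14 weeks, with miR-126a-3p listed at 0 in 1 ob/ob library. The myeloid sum was 3144 to 4465 and 2139 to 3272 RPM at 9 weeks, and 1833 to 2916 and 2386 to 4026 at 14 weeks. All 5 stellate miRNAs were listed, with 1380 to 1800 and 934 to 1567 RPM at 9 weeks and 495 to 1860 and 1347 to 2668 RPM at 14 weeks. Of 5 biliary miRNAs 4 were listed, with 51.5 to 71.1 and 54.4 to 87.3 RPM at 9 weeks and 22.7 to 56.4 and 53.0 to 103 RPM at 14 weeks. All 3 lymphocyte miRNAs were listed, with 7421 to 7649 and 4935 to 6729 RPM at 9 weeks and 5075 to 8207 and 5751 to 7982 RPM at 14 weeks. Of their members limma called miR-126a-3p, miR-511-3p, miR-199a-3p and miR-214-3p lower at 9 weeks (against 32.4% of all tested miRNAs), of which miR-199a-3p was still called lower after rescaling (against 10.2%). As deposited, miR-141-3p of the biliary list was called higher at 14 weeks only. After rescaling it was called higher at both ages, and the stellate miR-143-3p at 14 weeks (against 11.3% at 9 weeks and 15.5% at 14 weeks). The profile of miR-141-3p correlated with that of miR-210-3p at 0.81 over the 15 libraries as deposited and at 0.85 after rescaling. miR-199a-5p and miR-145a-5p of the stellate list were listed at 0 in some libraries. The part of any of these cells in the difference of miR-210-3p was not tested.

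**Figure D5:**
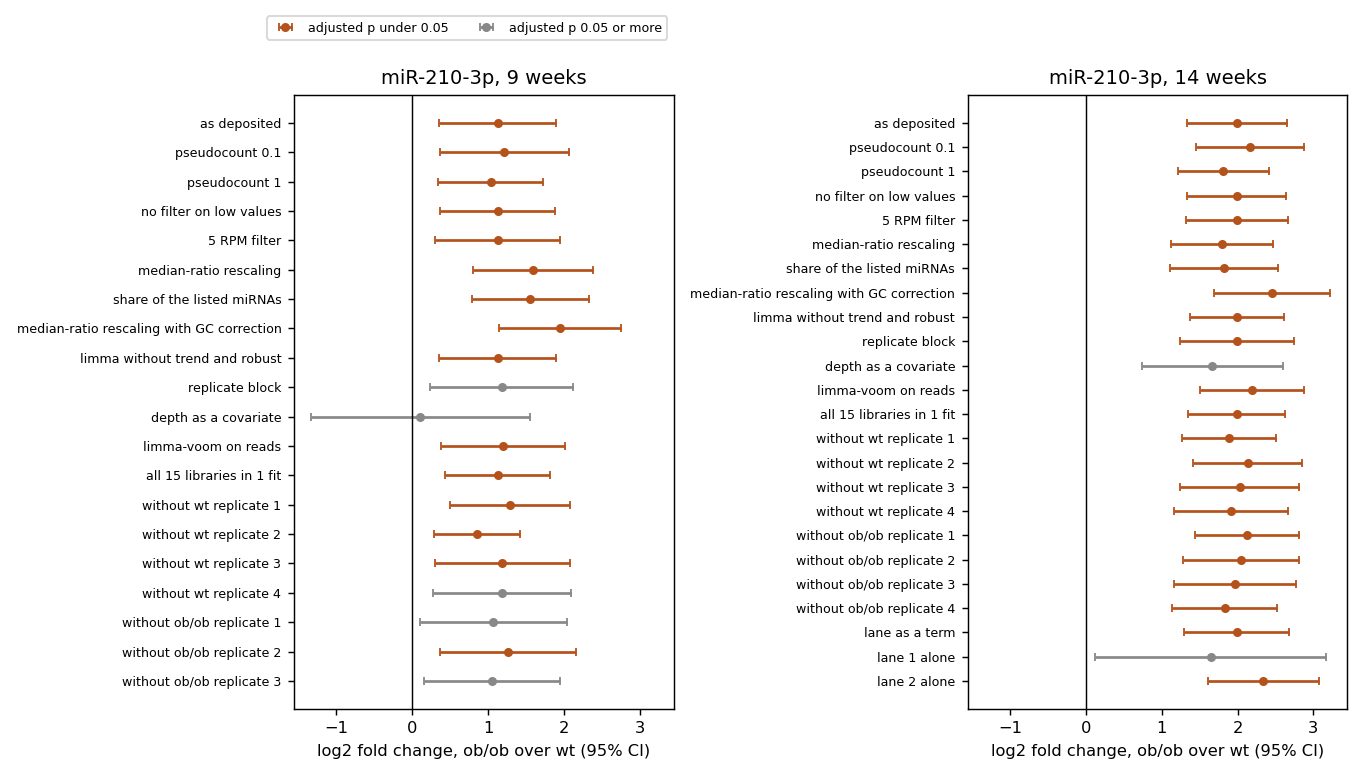
log2 fold change of miR-210-3p, ob/ob over wt, with its 95% interval under each way of processing at 9 weeks (left) and 14 weeks (right), in orange where the limma adjusted p is under 0.05 and grey where it is not. All estimates lie above 0, from 0.11 to 1.95 at 9 weeks and from 1.64 to 2.45 at 14 weeks, and the lowest at 9 weeks is the fit with depth as a covariate.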

How the data were processed

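Small RNA of 15 Kupffer cell libraries had been isolated with a miRNeasy column kit, made into TruSeq Small RNA libraries and sequenced on an Illumina HiSeq instrument, per the labels' protocols. bcl2fastq and cutadapt are named in the submitters' processing notes, as are the builds mm10 and GRCm38.p5. The deposited values, 1 table per age, were taken as RPM; the unit was inferred from the values. The reads that form the denominator, the aligner, the counter and the annotation were not given in the sources used here. In every library the values were whole multiples of 1 step within 0.1 reads for 100.0% of values up to 1000 RPM and at least 95.3% of all nonzero values, and the step gave the depth. Implied depths were 9.08 to 98.1 M reads (M, 1000000), so that 1 RPM stands for 9.08 to 98.1 reads, which are not independent molecules.

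For each age, log2(RPM + 0.5) was fitted over the whole table with limma 3.58.1 under R 4.3.3 (empirical Bayes with trend and robust settings, two-sided, Benjamini-Hochberg adjustment over all tested miRNAs, threshold 0.05), with no covariate. A miRNA was tested when it reached 1 RPM in at least 3 libraries at 9 weeks, 4 at 14 weeks and 3 for the interaction of genotype and age, which used all 15 libraries. Numbers of miR-210-3p reads were turned into exact 95% Poisson or Clopper-Pearson intervals with scipy 1.17.1. The alternatives were other pseudocounts (0.1 and 1) and filters (none and 5 RPM), median-ratio rescaling over miRNAs with a mean of at least 5 RPM, shares of the listed sum, rescaling together with a GC correction, limma without trend, a shared fit of all libraries, a replicate block, depth or lane as a term, single lanes, single libraries left out, and limma-voom on the implied reads, which was added after seeing the data. The fits were tested on simulated data of independent values. These left out miRNAs without reads in some library and had no genotype difference in depth and no shift of the whole table. That test thus does not bear on these features of the libraries.

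miR-210-3p and the lists were chosen with earlier results of these data known. The miRNAs named are the hypoxia list members past the threshold at either age and the 4 others with the smallest p, the 5 closest and 3 most opposite profiles, the 5 closest deviations from the group means, and the neighbours in mean level. miR-24-3p and miR-93-5p of the hypoxia list are named for their values of 0. miR-23a-3p, miR-27a-3p and miR-106a-5p of the hypoxia list were not analysed here.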

Additional observations from a re-analysis of the deposited data

Results flagged for a closer look

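Each measure was examined in each group of 4 libraries, which leaves out ob/ob of 9 weeks. Of these 69 sets of 4 values, 8 held a library far from the other 3. Chance gives about 1 in 20 for independent sets. These sets share libraries, so the count is a description. The rank of miR-210-3p in wt library 2 of 9 weeks was 155, against 125 to 130 in the other wt libraries of that age. The depth of wt library 1 of 9 weeks was 22.8 M reads (M, 1000000), against 13.4 to 14.3 M. In wt of 9 weeks miR-155-5p stood at 15.6 RPM in library 3, against 6.63 to 7.48 RPM, and miR-423-5p at 969 RPM in library 2, against 724 to 759 RPM. In wt library 1 of 14 weeks, the shallowest of all, miR-181c-5p stood at 85.8 RPM against 311 to 341 RPM, miR-21a-5p at 13315 RPM against 19190 to 20004 RPM, and miR-26a-5p at 9160 RPM against 27524 to 30307 RPM. In ob/ob library 4 of 14 weeks, the library with the most miR-210-3p, miR-26a-5p stood at 16527 RPM against 23669 to 23738 RPM.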

How the results depend on the processing

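miR-210-3p was higher in ob/ob under each of 19 alternatives at 9 weeks (0.11 to 1.95) and 23 at 14 weeks (1.64 to 2.45). The call was lost with depth as a covariate (0.11 at 9 weeks, adjusted p = 0.896; 1.67 at 14 weeks, adjusted p = 0.0767, limma), and at 14 weeks in lane 1 alone (1.64, adjusted p = 0.377), which leaves 2 against 2 libraries. Leaving out 1 library gave 0.85 to 1.29 at 9 weeks, with the call kept in 4 of 7 cases, and 1.83 to 2.13 at 14 weeks, kept in 8 of 8. The difference between the ages stayed uncalled for miR-210-3p under all 27 alternatives (0.20 to 1.21); over all miRNAs it gave 0 to 4 calls, the most without a filter. With rescaling and a GC correction together, over the miRNAs with a sequence, miR-210-3p differed by 1.95 at 9 weeks and 2.45 at 14 weeks (1.59 and 1.80 with rescaling alone), and miR-210-5p passed at 9 weeks (1.15, limma, adjusted p = 0.0105).

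Replicate numbers gave no clear pairing of the libraries, but so few libraries cannot exclude one. Deviations from the group means of same-numbered libraries correlated across miRNAs at -0.14 to 0.28 at 9 weeks and -0.24 to 0.20 at 14 weeks. Of the numbers, 1 of 3 and 2 of 4 matched best with their own. With a replicate block miR-210-3p stood at 1.18 (limma, adjusted p = 0.0703) at 9 weeks, over 3 libraries of each genotype, and at 1.99 (adjusted p = 0.0241) at 14 weeks, and calls over all miRNAs went from 67 to 34 and from 26 to 22.

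Of 17 hypoxia list members tested at 9 weeks, 5 were called as deposited (67 of 179 over all miRNAs). After rescaling 1 was (38 of 177), as shares 1 (34 of 179) and with depth 0 (0 of 179). With 1 library left out 5 to 7 were (53 to 71 over all miRNAs). With rescaling and GC correction 2 of 15 were, miR-192-5p and miR-210-5p (39 of 157 over all miRNAs). Of 16 tested at 14 weeks, 2 were called as deposited (26 of 171 over all miRNAs) and 0 with depth (3 of 171). With rescaling and GC correction 1 of 14 was (35 of 150). In lane 1 alone 0 were (1 of 173) and in lane 2 alone 4 (51 of 179). With 1 library left out 1 to 3 were (13 to 46 over all miRNAs). miR-181a-5p changed sign at 9 weeks after rescaling (0.11), as a share (0.07) and with rescaling and GC correction (0.13), and miR-181c-5p after rescaling (0.01). Calls over all miRNAs at 9 weeks fell from 67 to 38 after rescaling, 34 as shares, 39 with rescaling and GC correction, and 0 with depth. At 14 weeks they went from 26 to 48 after rescaling, 47 as shares, 47 in the shared fit, 51 in lane 2, 1 in lane 1, 3 with depth, 46 without wt library 1, 15 without wt library 3 and 13 without ob/ob library 3. The cause of these changes was not tested. miR-210-5p had only 1 to 24 reads in wt libraries of 14 weeks, which limits its comparison.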
